A study of Mus musculus with 4 samples.

Results

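The signal transducer and activator of transcription (STAT) family was examined here as a set of genes whose own chromatin was profiled by ATAC-seq, an assay in which the Tn5 transposase inserts sequencing adapters into open DNA. The members were Stat2, Stat3, Stat4, Stat5a, Stat5b and Stat6. Merging all peaks of the 4 libraries that shared 1 bp or more gave 60710 regions. A region was taken as a STAT region when the nearest-gene name given to its highest peak was one of the 6 members. This rule gave 25 STAT regions, which were 1 at Stat2, 3 at Stat3, 5 at Stat4, 3 at Stat5a, 6 at Stat5b and 7 at Stat6. The rule used names, positions and which peak of a region was highest. It did not use the difference between control and IL-4 libraries as such. The highest peak could come from either group, however, and at a region near Stat6 described below this decided the name.

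The control group held 2 libraries of bone marrow-derived macrophages (BMDMs), primary macrophages grown out of marrow cells, that received no IL-4. The IL-4 group held 2 libraries of BMDMs given IL-4 (20 ng/ml) for 1 h. All cells came from wild-type mice of 8 to 12 weeks on a C57BL/6 background and were differentiated for 6 days with L929 supernatant, which supplies M-CSF (macrophage colony-stimulating factor), so every library, controls included, had seen M-CSF. The study's methods speak of biological replicates without saying whether they were separate animals, and p-values therefore measure only the spread between these libraries.

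The libraries held 39462 to 45250 peaks. Each peak carries a score, read here as −log10 of its MACS2 q-value and called peak height, which grows with the strength of the evidence that a peak exceeds the surrounding signal in that library. The median height per library ran from 6.41 to 8.04, and both values were lowest in the second IL-4 library. No read counts were in the files used, so depth is unknown, and height and the number of weak peaks both grow with depth. The identity of the cells was checked by peaks within 1000 bp of the start of marker genes. Of 9 macrophage markers, 7 had such a peak in all 4 libraries (Adgre1, Cd68, Itgam, Spi1, Fcgr1, Lyz2 and Cd14), Mertk had one in some libraries and Csf1r in none. None of 5 T cell markers, 5 B cell markers and 5 erythroid and mast cell markers had one in any library, while S100a8 among 5 neutrophil markers had one in all 4 libraries and Pdgfra among 5 stromal markers in some.

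STAT proteins wait in the cytoplasm as inactive molecules. When a cytokine binds its receptor, the JAK kinases bound to the receptor tails phosphorylate the receptor and the STAT, and paired STATs enter the nucleus and bind DNA. STAT6 is the member that IL-4 activates through the IL-4 receptor α chain, and it drives alternative macrophage polarization. STAT2 works with IRF9 in the type I interferon response, STAT3 follows IL-6 and IL-10, STAT4 follows IL-12 and is best known in T and NK cells, and the near twins STAT5A and STAT5B follow GM-CSF, IL-2 family cytokines, prolactin and growth hormone. The data describe how open the genes of these factors were, not the amount or activity of the proteins.

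The DNA sites of most STAT dimers consist of TTC and GAA around a short spacer, and STAT6 prefers a spacer of 4 bases (TTCNNNNGAA). One STAT promoter carried such a match inside a region seen in all 4 libraries, and it was the promoter of Stat2. The stretch is shown because it places this match next to an interferon-stimulated response element (ISRE) core, GAAANNGAAA read on the minus strand, the element that the complex of STAT2 and IRF9 is known to bind. It covers chr10:128270272-128270301 on the plus strand of mm10, 226 to 197 bp before the Stat2 start site, with the letters of both matches in capitals and 2 bases between them.
Stat2: ctggTTTCAGTTTCctTTCCCTAGAActca

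The Stat6 promoter is shown because Stat6 encodes the factor that IL-4 activates. It held no STAT match with a spacer of 4 or 3 bases (TTCNNNGAA). The accessible stretch before the gene, chr10:127642821-127642954 on the plus strand, carried 2 adjacent copies of GAGGAA on the opposite strand, the core read by PU.1, the ETS factor that specifies macrophages. They are printed in capitals.
Stat6: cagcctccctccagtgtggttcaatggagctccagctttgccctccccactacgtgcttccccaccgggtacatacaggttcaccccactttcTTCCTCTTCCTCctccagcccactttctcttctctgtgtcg

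The Stat5a promoter and the Stat5b promoter region at −13 bp are shown because their upstream bases gave the highest alignment score. Only bases before the start site were aligned, at most 300 per promoter region, and the whole region for Stat4. The score is not scaled to length. A local alignment placed 73 of 92 columns as identical (79.3%, alignment score 83), whereas the next best pair among the 7 regions found in all 4 libraries scored 29. The 30 ungapped columns with the most identical bases, 28 of 30, are printed in the direction of transcription with identical bases in capitals. In Stat5b they lie on the minus strand at chr11:100822581-100822610, 40 to 11 bp before the start site, and in Stat5a on the plus strand at chr11:100860435-100860464, 49 to 20 bp before the start site.
Stat5b: GCAGCTGACCTTTtAGaAGGAAATCGCTGC
Stat5a: GCAGCTGACCTTTgAGgAGGAAATCGCTGC

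The likeness stopped short of identity over 36 bases. Of the 547 stretches of that length in the Stat5a regions, 0 occurred at the Stat5b locus, and of the 815 in the Stat5b regions, 0 occurred at the Stat5a locus.

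Of the 25 STAT regions, 7 had a peak in all 4 libraries, 3 in 3 libraries, 6 in 2 and 9 in 1. STAT regions were thus found in all 4 libraries in 28% of cases, against 41.9% of all regions, and in 1 library in 36%, against 29.6%. By the HOMER annotation of the authors, 9 of the 25 lay at a promoter, 11 in an intron and 4 between genes, and 1 lay in the 5′ UTR of Stat4. The promoter share was 36%, against 18.8% of all regions. Among regions found in all 4 libraries it was 85.7% for the STAT genes, against 31.1% for all genes, because only the Stat4 region was not at a promoter. The median length was 175 bp for STAT regions and 209 bp for all regions, and the median GC content was 54.5% and 51.0%. These are descriptions of a small list, with no test.

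**Figure D1:**
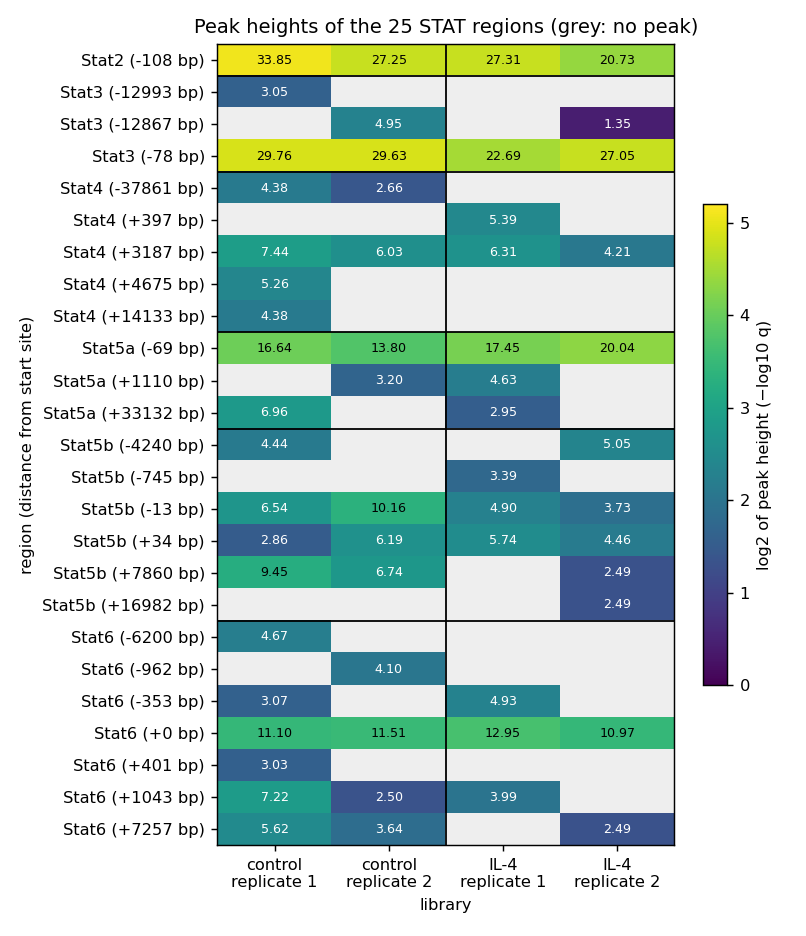
Peak height (−log10 q, printed in each cell and coloured on a log2 scale) of the 25 STAT regions (rows, named by gene and by the distance of the highest peak from the annotated start site in bp) in the 4 libraries (columns). Grey cells had no peak. The tall rows, filled across all 4 columns, are the promoters of Stat2, Stat3, Stat5a and Stat6, and the rows with 1 or 2 filled cells reach 6.96 at most.

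The promoters of Stat2 and Stat3 were the highest STAT regions in every library. The Stat2 region, chr10:128270219-128270716 (498 bp, highest peak at −108 bp), covers the Stat2 start site and also the last exon of its neighbour Apof. The 2 control libraries had heights of 33.85 and 27.25, and the 2 IL-4 libraries 27.31 and 20.73. The mean height was 30.6 ± 4.67 in control and 24.0 ± 4.65 after IL-4 (SD, n = 2), and the raw groups overlapped because 1 control and 1 IL-4 library were nearly equal. After quantile normalisation the log2 height change was −0.21 (SE 0.24, 95% CI −0.68 to 0.26), with an adjusted p of 0.877 in limma over the 25442 regions found in all 4 libraries. Stat2 was the tallest STAT region in 2 libraries and stood above 85.7% to 94.8% of the 7919 promoter regions found in all 4 libraries.

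Stat3 encodes the factor through which IL-10 restrains macrophages. Its promoter region, chr11:100939299-100939913 (615 bp, highest peak at −78 bp), covers the start site shared by all 3 curated Stat3 transcripts and overlaps the noncoding gene Gm46295. It had heights of 29.76 and 29.63 in control and 22.69 and 27.05 after IL-4. Both IL-4 libraries were below both control libraries, which were nearly equal. That order was lost after normalisation, where the groups overlapped and the log2 change was −0.14 (SE 0.24, 95% CI −0.62 to 0.34, adjusted p = 0.928, limma). The change was −0.32 between the first replicates and 0.04 between the second.

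Stat5a and Stat6 had promoters of middle height. The Stat5a region, chr11:100860282-100860664 (383 bp, highest peak at −69 bp), covers the start of the transcript NM_001164062, the third of 3 curated Stat5a start sites, and lies 931 and 626 bp from the others. Its heights were 16.64 and 13.80 in control and 17.45 and 20.04 after IL-4. It was the STAT promoter with both IL-4 libraries above both control libraries on the raw and on the normalised scale, and it had the highest fitted log2 change of the 7, at 0.50 (SE 0.33, 95% CI −0.16 to 1.15). The adjusted p of 0.728 in limma was the lowest of the 7 STAT regions and did not pass the threshold of 0.05. The change was 0.21 between the first replicates and 0.79 between the second. It was 0.25 without the second IL-4 library and 0.74 without the first, and without the second library of either group it was no longer the highest of the 7. It stood above 59.4% and 52.7% of the promoter regions in the control libraries, and above 65.2% and 84.2% of them after IL-4.

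The Stat6 promoter was open before IL-4 was added. The region, chr10:127642821-127643114 (294 bp, highest peak at 0 bp, the start site itself), had heights of 11.10 and 11.51 in control and 12.95 and 10.97 after IL-4. The raw groups overlapped, with means of 11.3 ± 0.290 and 12.0 ± 1.40 (SD, n = 2). On the normalised scale both IL-4 libraries lay above both controls, and the log2 change was 0.31 (SE 0.41, 95% CI −0.51 to 1.13, adjusted p = 0.897, limma). Its place among promoter regions ran from above 33.6% of them in the first control library to above 51.2% in the second IL-4 library.

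Stat5b was open at 2 of its 3 curated start sites, and both regions were low. The region at −13 bp, chr11:100822504-100822664 (161 bp), marks the start of NM_011489 inside the first intron of the longer transcript. It is the region that shares its sequence with the Stat5a promoter. Its heights were 6.54 and 10.16 in control and 4.90 and 3.73 after IL-4, so both IL-4 libraries were below both controls on the raw and the normalised scale. The log2 change of −0.68 (SE 0.54, 95% CI −1.77 to 0.40) was the lowest of the 7, with an adjusted p of 0.791 in limma. The change was −0.25 between the first replicates and −1.12 between the second, −1.13 without the first control library and −0.30 without the second, where that of Stat2 was slightly lower. The Stat5a promoter and the Stat5b region at −13 bp thus had fitted changes of opposite sign, each with an interval that included 0. The other Stat5b promoter region, at 34 bp, had a change of 0.46, the same sign as Stat5a. The differences between these regions were not tested.

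The other Stat5b region, at 34 bp past the start of NM_001113563, chr11:100850462-100850760 (299 bp), was the lowest of the 7 and the most GC-rich, with 81.9% GC. It had heights of 2.86 and 6.19 in control and 5.74 and 4.46 after IL-4. The control libraries lay on either side of both IL-4 libraries, and the log2 change of 0.46 (SE 0.56, 95% CI −0.66 to 1.58, adjusted p = 0.886, limma) became −0.20 without the first control library (adjusted p = 0.982).

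**Figure D2:**
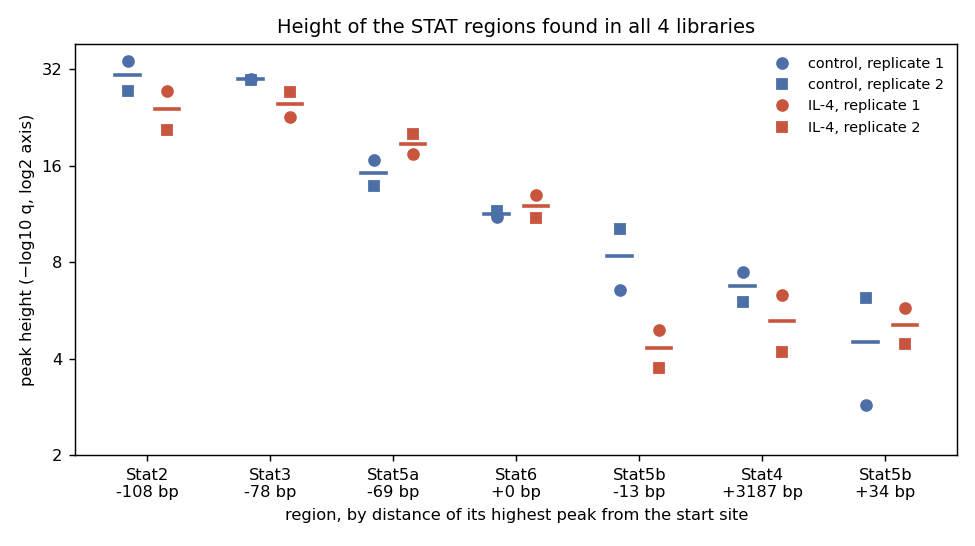
Peak height (−log10 q, log2 axis) of the 7 STAT regions with a peak in all 4 libraries, ordered by mean height and named by gene and distance from the start site in bp. Circles and squares are replicates 1 and 2, and short lines are group means. Control and IL-4 points separate on the raw scale at Stat3, Stat5a and the Stat5b region at −13 bp, and they overlap at the other regions. Raw heights are not adjusted for differences between libraries, and the share of all regions that separate on this scale was not computed.

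Stat4 differed from the other members in that none of its 2 curated start sites lay in a region found in all 4 libraries. The upstream start was 16691 bp from the nearest region. The start of NM_011487 was 347 bp from a region at 397 bp, chr1:52008587-52008695, which had a single peak, of height 5.39 in the first IL-4 library. Its one region found in all 4 libraries, chr1:52011338-52011543 (206 bp, at 3187 bp), lay in the first intron of NM_011487, with heights of 7.44 and 6.03 in control and 6.31 and 4.21 after IL-4. These groups overlapped, and the log2 change was −0.14 (SE 0.54, 95% CI −1.21 to 0.93, adjusted p = 0.971, limma). Whether Stat4 is transcribed in these cells was not measured.

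Over all genes, 9083 of 26032 curated start sites (34.9%) lay in a region found in all 4 libraries. For the STAT genes it was 6 of 11 (54.5%), which were the single start sites of Stat2, Stat3 and Stat6, 1 of 3 at Stat5a and 2 of 3 at Stat5b. Each member other than Stat4 therefore had at least 1 start site inside a region found in every library.

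By the mean height over the 4 libraries, Stat2 (27.3 ± 5.36, SD) and Stat3 (27.3 ± 3.31) could not be ordered. Stat5a (17.0 ± 2.57) and Stat6 (11.6 ± 0.908) followed, and the 4 heights of each did not overlap those of its neighbours in the order. The Stat5b region at −13 bp (6.33 ± 2.80), the Stat4 region (6.00 ± 1.34) and the Stat5b region at 34 bp (4.81 ± 1.49) overlapped one another. The order is one of the evidence for each peak and is not scaled by region length. The regions of Stat2 and Stat3 were also the longest, at 498 and 615 bp.

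**Figure D3:**
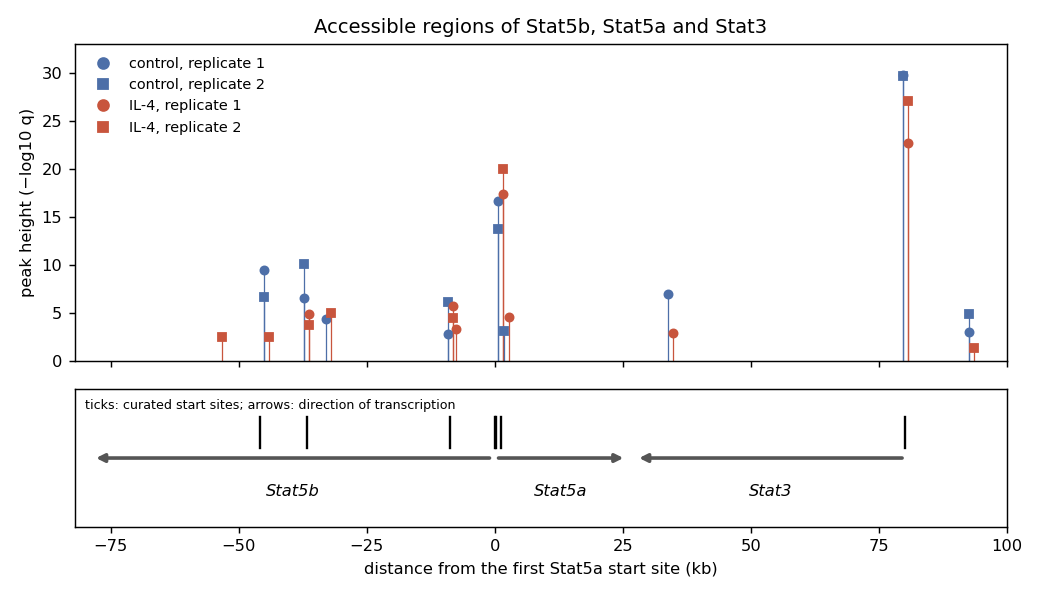
Peak height (−log10 q) of the Stat5b, Stat5a and Stat3 regions against the distance from the first Stat5a start site in kb. Control points are set slightly to the left and IL-4 points slightly to the right of each region's centre, and below are the genes, with arrows for the direction of transcription and ticks for curated start sites. The Stat3 and Stat5a promoters stand above the Stat5b regions in every library.

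The neighbouring genes Stat5b, Stat5a and Stat3 on chromosome 11 were assigned 12 of the 25 STAT regions by name. Stat5b (chr11:100780731-100859004) and Stat3 (chr11:100886806-100939594) are on the minus strand, and Stat5a lies between them on the plus strand (chr11:100859351-100885169). The Stat3 regions at −12993 and −12867 bp lie outside these genes. Stat5b and Stat5a stand head to head. One region assigned to Stat5a by its nearest start site, at 33132 bp, lies in fact inside Stat3, in intron 20 of NM_213659 (chr11:100893557-100893709), with heights of 6.96 in the first control library and 2.95 in the first IL-4 library. The nearest start site is only a naming rule, and which gene such a region acts on was not measured.

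The IL-4 comparison asked whether short stimulation changed the openness of the genes of the STAT factors themselves. Across all regions found in all 4 libraries, limma called 0.0157% higher after IL-4 and 0.00786% lower (adjusted p threshold of 0.05). No STAT region was called in either direction, and 0 of the 7 had an unadjusted p under 0.05, against 8.28% of all such regions. With calls this rare over the whole genome, a count of 0 among 7 regions does not set the STAT genes apart. The 95% intervals of the log2 change were wide. They reached from −0.68 to 0.26 at the narrowest, for Stat2, and from −1.77 to 0.40 for the Stat5b region at −13 bp.

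Of the 7 STAT regions, 3 had a positive log2 change and the median was −0.14 (SD over regions 0.43), beside a median of −0.000648 and an SD of 0.50 over all such regions. The STAT median was −0.02 with median centring in place of quantile normalisation. On leaving out a library it ran from −0.26 (without the first IL-4 library) to −0.02 (without the second). Normalised heights of both IL-4 libraries were above both controls at 2 of 7 STAT regions (Stat5a and Stat6), against 19.2% of all regions. They were below both controls at 2 of 7 (Stat2 and the Stat5b region at −13 bp), against 18.6% of all regions. With 1 region fewer, either STAT share would fall below the background, so neither share sets the STAT genes apart.

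**Figure D4:**
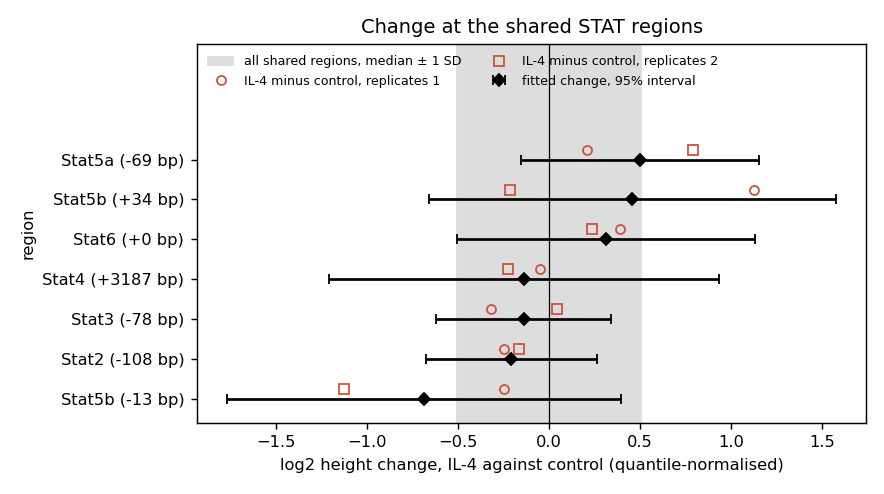
Log2 change in quantile-normalised height, IL-4 against control, for the 7 STAT regions found in all 4 libraries. Diamonds with bars are the limma change with its 95% interval, open circles and squares are the differences between replicates of the same number, and the grey band is the median ± 1 SD over all 25442 such regions. Every interval includes 0.

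Not one STAT region was IL-4-only, that is, with a peak in both IL-4 libraries and in neither control library, against 2.53% of all regions. One was control-only (4%), against 4.33% of all regions. With 25 STAT regions, neither count sets the STAT genes apart. The control-only region was an intergenic region upstream of Stat4, chr1:51970323-51970457 (135 bp, at −37861 bp from the NM_011487 start), with control heights of 4.38 and 2.66. It carried 2 copies of the AP-1 site, here searched as TGANTCA, the element bound by FOS and JUN dimers in activated macrophages. They are shown with 10 flanking bases on each side, at chr1:51970369-51970375 and chr1:51970433-51970439, both on the plus strand.
Stat4 upstream, first copy: gaaactccaaTGAGTCAtcactaactg
Stat4 upstream, second copy: ggaaagtggtTGAGTCActcaaccgtt

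In all, 9 STAT regions had a peak in 1 library only (36%, against 29.6% of all regions). While 7 had no IL-4 peak and 3 had no control peak, the matching shares over all regions were not computed. The control libraries had peaks in 19 and 14 STAT regions and the IL-4 libraries in 13 and 12. The mean was 16.5 ± 3.54 in control and 12.5 ± 0.707 after IL-4 (SD, n = 2), a difference of −4 regions with an exact two-sided permutation p of 0.3333, the smallest that 2 libraries against 2 can give. The difference was −1.5 without the first control library and −6.5 without the second. The same libraries differed over all regions too, with peaks in 72.2% and 66.7% of them in control and 66.5% and 62.1% after IL-4, and the part of depth in the STAT counts was not tested.

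Stat6, the gene with the most regions, had 6, 4, 3 and 2 of its 7 regions in control 1, control 2, IL-4 1 and IL-4 2. Besides its promoter, 2 regions had a peak in 3 libraries. The one in the first intron at 1043 bp (chr10:127643709-127644104) had heights of 7.22 and 2.50 in control and 3.99 in the first IL-4 library, with no peak in the second. The one in intron 4 at 7257 bp (chr10:127650186-127650363) had 5.62 and 3.64 in control and 2.49 in the second IL-4 library, with no peak in the first. The remaining 4 Stat6 regions, from −6200 to 401 bp, had peaks in 1 or 2 libraries with heights between 3.03 and 4.93.

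At Stat5b the intronic region at 7860 bp (chr11:100814612-100814833) was as high in control as the promoters of the gene, at 9.45 and 6.74, and it had no peak in the first IL-4 library and one of 2.49 in the second. The height in the second IL-4 library was thus below both control heights. The first IL-4 library gave no height to compare, so no fold change was computed. The region at −4240 bp had a peak in 1 library of each group, with 4.44 in the first control library and 5.05 in the second IL-4 library. The Stat5b regions at −745 bp (3.39) and 16982 bp (2.49) each had a peak in 1 IL-4 library. The Stat5a region at 1110 bp had 3.20 in the second control library and 4.63 in the first IL-4 library. A pair of small intergenic regions upstream of Stat3, at −12993 and −12867 bp, had heights of 3.05 in the first control library, and of 4.95 in the second control and 1.35 in the second IL-4 library, respectively. The Stat4 introns held single peaks of the first control library at 4675 bp (5.26) and at 14133 bp (4.38).

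One tall region close to Stat6 fell outside the rule. At chr10:127631752-127632270 (519 bp, intergenic), the peaks of both IL-4 libraries carried the name Stat6, at −10879 and −10891 bp, whereas the highest peak, from a control library, carried the name Lrp1, at −10855 bp. Its heights of 23.30 and 18.12 in control and 19.03 and 14.52 after IL-4 exceeded those of the Stat6 promoter in every library. It held a match to the STAT motif with a spacer of 4 bases. The groups overlapped, with a log2 change of −0.11 (SE 0.30, adjusted p = 0.954, limma).

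The sequences of the STAT regions were searched on both strands for 5 motifs. The STAT motif with a spacer of 4 bases was found in 2 of 25 STAT regions (8%), against 7.22% of all regions. At the share found among regions within 10% of each one's length, the count would be 1.60. They were the Stat2 promoter and the single-library Stat4 region at 14133 bp, where the match at chr1:52022411-52022420 overlaps a PU.1 core. The motif with a spacer of 3 bases was found in none, against 6.90% of all regions. AP-1 matches were found in 3 (12%), against 21.9%. None of these was among the 7 STAT regions found in all 4 libraries, against a share of 26.9% over all regions found in all 4. The PU.1 core was found in 10 (40%), against 38.3%, and the ISRE core in 2 (8%), against 3.62%. No test was run on these small counts. A match is a description of the letters and does not show that a factor bound there.

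In the fixed promoter windows of RefSeq on GRCm38.p6, from 250 bases before to 50 bases after the start, 9 STAT windows could be matched. The STAT motif with a spacer of 4 bases was in 1 of them, against 6.94% of 32817 windows of all genes, and the motif with a spacer of 3 bases in none, against 8.29%. The ISRE core was in 2 of 9, at Stat2 and at the NM_011487 start of Stat4 (−97 bases from the start, outside any region), against 3.43%. The PU.1 core was in 2 of 9, at Stat6 and Stat5a, against 28.3%, and the AP-1 site in none, against 7.81%.

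For the other genes of the pathway, 3 lists were counted in the same fit. The IL-4 receptor chains and JAK kinases (7 genes, the receptors and kinases that act before the STATs) had 43 regions, of which 20 were found in all 4 libraries. None was called in either direction, 5 of the 20 had an unadjusted p under 0.05 (8.28% of all regions did), the lowest adjusted p was 0.228, and the median log2 change was −0.14. The SOCS proteins, phosphatases and PIAS proteins (16 genes, the inhibitors that end the signal) had 99 regions and 34 in all 4 libraries, with 0 called, 3 at an unadjusted p under 0.05 and a median of −0.04. The IRF family (9 genes, another family of signal-dependent factors) had 56 regions and 26 in all 4 libraries, with 0 called, 1 at an unadjusted p under 0.05 and a median of −0.03.

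In that order the lists held 3 of 43, 4 of 99 and 4 of 56 IL-4-only regions, against 2.53% of all regions, and 2, 6 and 1 control-only regions, against 4.33%. These counts are descriptions and were not tested. The tallest of these other than at Socs6 was an intergenic region at −12110 bp from Jak2, a kinase of several cytokine receptors, chr19:29239603-29239834, with heights of 20.71 and 12.90 in the IL-4 libraries and no control peak. Irf8, which encodes a macrophage lineage factor, had one at −10938 bp (6.62 and 5.95), and Socs7 one at 37953 bp (6.62 and 5.29). Ranked by the lower of its 2 heights, the first control-only region was at −25345 bp from Ptpn1, which encodes the phosphatase PTP1B (6.74 and 4.95). The STAT genes held no IL-4-only region, which at a share of 2.53% over all regions does not set their 25 regions apart.

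The mean normalised log2 height of the 7 STAT regions was 3.33 and 3.64 in control and 3.45 and 3.54 after IL-4. Of 1040 genes with at least 5 regions found in all 4 libraries, Rassf2 (0.131) and Gdi2 (0.141) were among the 3 nearest to this profile by Euclidean distance over the 4 libraries. With 4 libraries and 1040 candidates such closeness is a description of the levels only.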

How the data were processed

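ATAC-seq libraries of control and IL-4-stimulated BMDMs (n = 2 each) were analysed from the deposited peak lists. The authors aligned reads to mm10 with BWA 0.7.10, called peaks in each library with MACS2 2.0.10, removed ENCODE blacklisted regions and annotated peaks with HOMER 4.2 (SAMtools 0.1.19 is also named), the versions being those of the submitters' processing notes. The Tn5 shift and the handling of duplicates are not given in the sources used here. The deposited scores carry no unit, and they were taken to be −log10 q-values. The lowest, 1.3, corresponds to a q of 0.0501, although the methods state 0.01. They are not read counts, so depth is unknown, and DiffBind could not be applied.

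Overlaps of 1 bp were enough to merge peaks, which were kept for chromosomes 1 to 19, X and Y (12 mitochondrial peaks were left out). Coordinates are 1-based, mm10, and each library gave a region its highest peak. For the 25442 regions present in all 4 libraries, log2 heights without pseudocount were quantile-normalised and tested in R 4.3.3 (limma 3.58.1, empirical Bayes with variance trend, two-sided, Benjamini-Hochberg over all these regions, threshold 0.05). The fit was also run on simulated heights, with planted changes far larger than those at the STAT regions. That run does not show whether changes of the size seen here could be found. Counts of regions per library were compared by an exact permutation test. Genes, start sites and sequences are from RefSeq GRCm38.p6, the mm10 build, and alignments used Biopython 1.88. Regions were merged in Python 3.11.15 with pandas 2.3.3.

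The named regions were, for each member, the one nearest its start site, those with the largest changes in each direction, regions in 1 group only, and those in 2 or more libraries with a STAT motif. Other lists were named for regions in 1 group only, up to 5, and 3 genes for likeness, 1 of which is not reported here. The remaining STAT regions, the Lrp1-named region, the ISRE core, the start-site counts and the alignment were added after values were seen. The members and lists were chosen with earlier results of these data known.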

Additional observations from a re-analysis of the deposited data

How the results depend on the processing

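The calls at the 7 STAT regions stayed at 0 in each of the alternatives run, and so did those at the other listed genes. With calls this few, that says little about stability. The replicate numbers were not shown to pair libraries, since the deviations of same-numbered libraries over 25442 regions had r = 0.00677 and there were only 2 pairs. The fit with the replicate number as a block (replicate block) called 14 of all regions in place of 6, and still 0 STAT regions. All-region calls were 0 with no variance trend and 3 with only peaks above the pooled median height of 7.37. Leaving out one library at a time gave 0 to 14 calls, with 0 without either IL-4 library and 14 without the second control library. In those fits the lone library is assumed to vary like the others.

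With only peaks above the median height, 4 STAT regions were found in all 4 libraries in place of 7, none was control-only, the median log2 change was 0.056 in place of −0.14, and 1 region held the STAT motif with a spacer of 4 bases in place of 2. That motif count was also 1 in the central 300 bp of each region. Control-only STAT regions numbered 2 with an overlap of at least 50 bp, and 2 to 7 when a library was left out, the 7 being without the second control library. IL-4-only STAT regions numbered 0 to 2 on leaving out a library, with 1 without the first and 2 without the second IL-4 library. When a library was left out, its group was judged by the remaining library alone, which is a looser rule. The shares of control-only and IL-4-only regions over all regions were not computed at these settings. Of the log2 changes at single regions, 2 changed sign, namely the Stat5b region at 34 bp (0.46 with all libraries, −0.20 to 1.06 on leaving out a library, the lowest without the first control library) and the Stat3 promoter (−0.14 with all libraries, −0.38 to 0.11 on leaving out a library, the highest without the first IL-4 library). The causes were not tested. Depth was not known, and 2 libraries per group limited every comparison.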
